A study of Mus musculus with 32 samples.

Results

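The genes described here are 6 DNA-binding transcription factor genes, Gabpa, Ets2, Erg, Runx1, Sim2 and Zbtb21, picked by gene symbol from the 55401 genes of the count table. They are not all such genes of their stretch, and Bach1, Olig1, Olig2 and Prdm15 were left out of the set. All 6 members lie on mouse chromosome 16 between Mrpl39 and Zbtb21, a stretch that both aneuploid genotypes of the study carry in an additional copy. RNA was extracted from the cerebral cortex of 32 mice at 6 weeks of age, depleted of ribosomal RNA and sequenced, with 1 library per animal. The groups were 10 Ts65Dn;Df(17)2 mice (5 labelled female, 5 labelled male), 10 Dp(16)1/Df(16)8 mice (5 and 5) and 12 euploid +/+ mice (6 and 6). As background, Ts65Dn mice carry a freestanding extra chromosome that holds the distal part of chromosome 16 joined to the centromeric end of chromosome 17, and in Dp(16)1 mice the corresponding stretch of chromosome 16 is duplicated in place. Df(17)2 and Df(16)8 are deficiencies that bring back to the normal copy number the parts of chromosome 17 and of chromosome 16 that each line has in excess of the shared region. The labels give genotype, sex and an animal number for each animal but neither litter nor strain background, and do not say from which cross the +/+ mice came. The additional copy is inherited and is not limited to a cell type, so these mice show the dose of the whole stretch and not that of any 1 gene on it.

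Libraries held between 5795479 and 11189548 counts (median 7883104.5). No pair of libraries of a genotype held identical counts. In 31 of 32 libraries the Xist and Y-linked transcripts fitted the labelled sex. Replicate 2 of Dp(16)1/Df(16)8, labelled female, had 14 Xist counts beside 281 Eif2s3y and 696 Ddx3y counts, and without it every count of members called below was the same. Markers of cortical excitatory neurons were present in every library, with a summed level of 1165 to 1965 CPM, which here are read counts put on one library size through TMM factors, in Ts65Dn;Df(17)2 mice, 1193 to 2246 in Dp(16)1/Df(16)8 mice and 1196 to 2267 in +/+ mice. Markers of striatal neurons, a neighbouring tissue, varied widely between animals, from 1129 to 4070 CPM (median 3020) in Ts65Dn;Df(17)2 mice, 504.0 to 4426 (median 3080) in Dp(16)1/Df(16)8 mice and 380.6 to 4644 (median 1006) in +/+ mice. All 15 striatal markers had a fold above 1 in both aneuploid genotypes, with a median of 1.61 in Ts65Dn;Df(17)2 mice and 1.43 in Dp(16)1/Df(16)8 mice, and none was called. Of the 10 excitatory markers 5 fell in Ts65Dn;Df(17)2 mice, against 2.22% of all genes called lower. The median fold of the 10 was 0.697, and 2 had a fold above 1. None was called in Dp(16)1/Df(16)8 mice (median 0.809). With both aneuploid genotypes set against +/+, 3 of the 10 fell, against 2.44% of all genes. Of 6 markers of inhibitory neurons 1, Gad1, rose in Ts65Dn;Df(17)2 mice, against 1.75% of all genes called higher, and 4 of the 6 had a fold above 1. Of 6 astrocyte markers 1, Aldoc, fell there, against 2.22% of all genes called lower, while 4 of the 6 had a fold above 1. Neither list held a called gene in Dp(16)1/Df(16)8 mice. With both aneuploid genotypes set against +/+, 1 of the 6 astrocyte markers rose, against 1.78% of all genes, and 2 fell, against 2.44%. No marker of inhibitory neurons was called in that comparison. With the striatal mean as a term in the model, 12 of the 14 calls of list genes given below were lost, those of 8 of 9 genes, and the calls of Ctss were kept. None of these excitatory or striatal markers was at 0 in every library. In RNA of whole tissue, fewer cells of a type and less RNA per cell cannot be told apart.

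Transcription factors bind short DNA motifs and raise or lower transcription of the genes beside them, and many of them act in complexes whose other subunits are encoded elsewhere in the genome. Gabpa, Ets2 and Erg belong to the ETS family, whose DNA-binding domain reads a GGAA core: GABPA pairs with a GABPB subunit and is known for driving nuclear genes of mitochondria, ETS2 is a nuclear target of Ras and MAP kinase signalling, and ERG is known for its role in endothelial cells. RUNX1 binds DNA with its partner CBFB and is best known in blood formation. SIM2 is a bHLH-PAS protein that needs ARNT or ARNT2 as a partner, and ZBTB21 is a BTB zinc finger protein known as a transcriptional repressor.

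The promoter windows of 2 members are shown. They are that of Gabpa, which it shares with its neighbour Atp5j, a gene taken up below, and that of Zbtb21. Each window runs from 250 bases before to 50 bases after an annotated transcript start, is 300 bases long and was read from RefSeq tables of GRCm38.p6, which hold windows for 5 of the 6 genes. Capitals mark matches, on either strand, to an ETS core (CCGGAA), to the cyclic AMP response element (TGACGTCA, the same letters on both strands) and to a RUNX core (TGTGGT). This ETS core is narrower than GGAA alone. Stretches of GGAA without CC before them, which the Gabpa window also holds, are neither marked nor counted. Of 32851 windows of this length, 14.9% held the ETS core, 1.79% the cyclic AMP response element and 16.8% the RUNX core.
Gabpa, chr16:84834874-84835173, plus strand: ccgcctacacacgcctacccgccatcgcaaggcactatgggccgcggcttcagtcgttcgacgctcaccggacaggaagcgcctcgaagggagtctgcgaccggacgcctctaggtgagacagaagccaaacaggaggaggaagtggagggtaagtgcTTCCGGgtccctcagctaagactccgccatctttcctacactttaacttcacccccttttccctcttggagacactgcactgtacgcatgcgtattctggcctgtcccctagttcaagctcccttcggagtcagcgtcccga
Zbtb21, chr16:97962573-97962872, minus strand: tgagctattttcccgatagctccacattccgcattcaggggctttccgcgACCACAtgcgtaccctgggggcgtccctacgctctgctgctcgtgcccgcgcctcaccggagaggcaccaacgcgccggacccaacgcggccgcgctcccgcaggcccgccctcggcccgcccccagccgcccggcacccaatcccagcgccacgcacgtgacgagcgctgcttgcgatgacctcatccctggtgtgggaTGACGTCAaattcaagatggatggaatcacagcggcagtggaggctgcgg
The Gabpa window held 1 match to the ETS core, 92 bases before the start (TTCCGG as printed). The starts of Gabpa and of the nearer Atp5j transcript lay 148 bases apart and pointed away from each other, and the same ETS match lay 61 bases before that Atp5j start. The Zbtb21 window held the cyclic AMP response element at the start itself, at bases 1 to 8 counted with the start as 1, and a RUNX core match 200 bases before it. None of the 3 motifs was matched in the Ets2 window or in the 3 Erg windows. The distal Runx1 window held 2 RUNX core matches and the proximal one an ETS core match. A match is a stretch of letters and not evidence of binding, and whether any match has a part in the levels below was not tested.

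The 6 genes spanned a wide range of levels in the cortex. Per kilobase of annotated exon, and as means over animals, Ets2 was highest at 19.6 CPM in Ts65Dn;Df(17)2 mice, 19.7 in Dp(16)1/Df(16)8 mice and 13.4 in +/+ mice. Gabpa followed with 8.28 in Ts65Dn;Df(17)2 mice, 8.51 in Dp(16)1/Df(16)8 mice and 5.61 in +/+ mice, next to Zbtb21 with 8.00 in Ts65Dn;Df(17)2 mice, 8.47 in Dp(16)1/Df(16)8 mice and 6.00 in +/+ mice. These 2 neighbours differed by less than 1 SD (0.494 for Gabpa and 0.537 for Zbtb21 in Ts65Dn;Df(17)2). Erg reached 1.5 CPM per kilobase in Ts65Dn;Df(17)2 mice, 1.70 in Dp(16)1/Df(16)8 mice and 1.06 in +/+ mice. Runx1 reached 0.263 CPM per kilobase in Ts65Dn;Df(17)2 mice, 0.283 in Dp(16)1/Df(16)8 mice and 0.178 in +/+ mice, and Sim2 0.0447 in Ts65Dn;Df(17)2 mice, 0.0592 in Dp(16)1/Df(16)8 mice and 0.0567 in +/+ mice. In every genotype the steps from Ets2 to the Gabpa and Zbtb21 pair, from there to Erg, from Erg to Runx1 and from Runx1 to Sim2 were larger than the SD of either neighbour, the narrowest being that between Runx1 and Sim2 in +/+ mice, with SDs of 0.0645 for Runx1 and 0.0626 for Sim2.

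**Figure D1:**
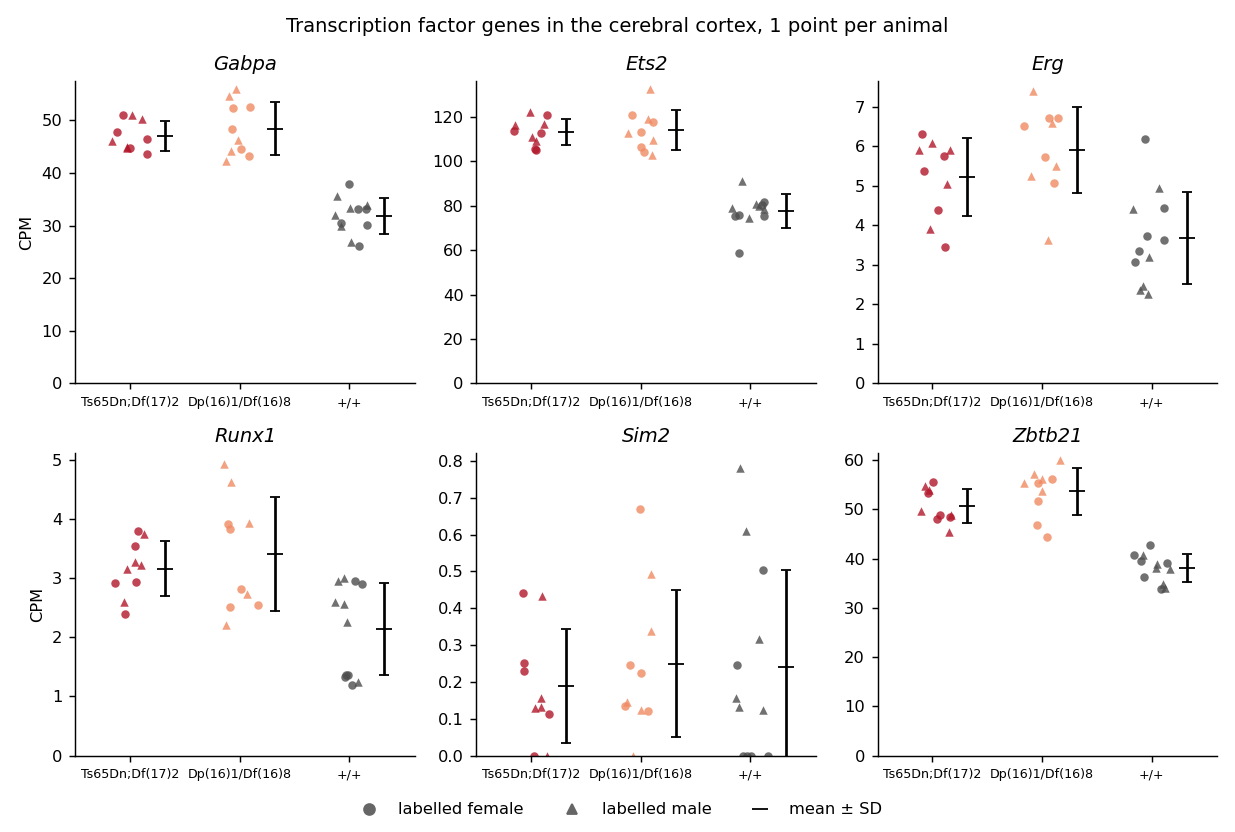
CPM of each of the 6 genes (vertical axes, from 0) in each animal, by genotype, with the mean and SD beside the points (cut at 0 for Sim2), where circles are labelled female and triangles labelled male. Gabpa, Ets2 and Zbtb21 of both aneuploid genotypes lie above every +/+ animal, Erg and Runx1 overlap with +/+, and Sim2 lies under 1 CPM throughout.

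The question put to each gene was whether its transcript followed the additional copy, tested as a difference from +/+ (a fold of 1) and as a difference from the ratio of 3 copies to 2 (a fold of 1.5). Of the 6 genes, 5 passed the filter on low counts and were tested. In Ts65Dn;Df(17)2 mice Gabpa, Ets2 and Zbtb21 were higher at an adjusted p below 0.05, 3 of the 5, against 1.75% of all 16042 tested genes called higher in that comparison. In Dp(16)1/Df(16)8 mice Erg joined them, 4 of the 5, against 0.418% of all genes, and with both aneuploid genotypes set against +/+ all of the 5 tested were higher, against 1.78%. Of the 77 tested genes of the segment, 62 were called higher in Ts65Dn;Df(17)2 mice and 55 in Dp(16)1/Df(16)8 mice. The median fold over those 77 genes was 1.5 in Ts65Dn;Df(17)2 mice and 1.54 in Dp(16)1/Df(16)8 mice. The p values throughout are from edgeR's quasi-likelihood F test with Benjamini-Hochberg adjustment. Both aneuploid genotypes were set against the same 12 +/+ mice.

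**Figure D2:**
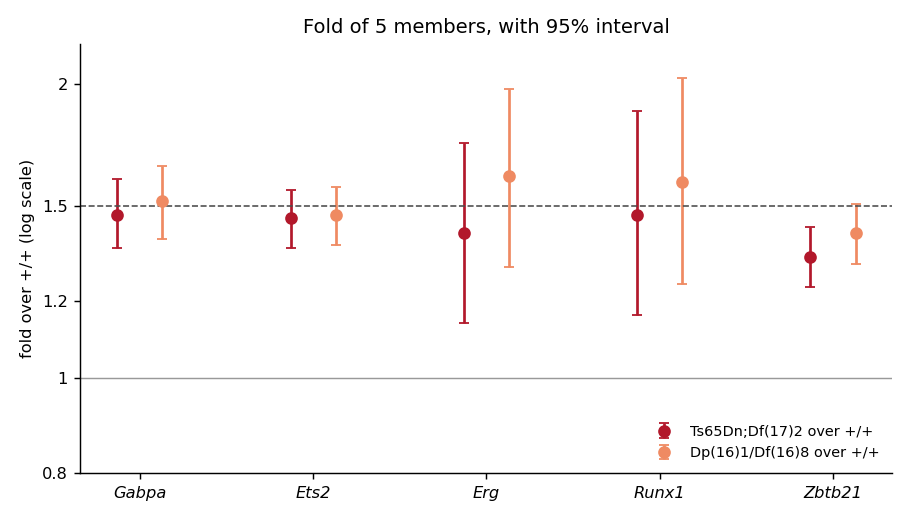
Fold over +/+ (log axis) of the 5 tested genes in Ts65Dn;Df(17)2 mice and Dp(16)1/Df(16)8 mice, with 95% intervals as bars, a solid line at 1 and a dashed line at 1.5. The intervals of Gabpa, Ets2, Erg and Runx1 span 1.5 in both genotypes, and the lower of the 2 Zbtb21 intervals ends at 1.43.

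Gabpa (ENSMUSG00000008976.16, chromosome 16, 84834925 to 84863779, plus strand, GRCm38) encodes the DNA-binding subunit of GABP. Its level was lowest 43.7, median 46.2 and highest 51.1 CPM in Ts65Dn;Df(17)2 mice, 42.2, 47.3 and 56.0 in Dp(16)1/Df(16)8 mice, and 26.1, 32.5 and 37.9 in +/+ mice. Every aneuploid animal stood above every +/+ animal. The fold was 1.47 (95% interval 1.36 to 1.6, adjusted p = 3.8e-08, higher than the +/+ mean in 10 of 10) in Ts65Dn;Df(17)2 mice and 1.52 (1.39 to 1.65, adjusted p = 9.4e-09, 10 of 10) in Dp(16)1/Df(16)8 mice. Neither fold was called as differing from 1.5, with an adjusted p of at least 0.851 in each genotype in edgeR's test over the 77 segment genes. A separation with no overlap between aneuploid and +/+ animals was seen for 0.33% of all tested genes in Ts65Dn;Df(17)2 mice and 0.243% in Dp(16)1/Df(16)8 mice.

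Atp5j, which encodes a subunit of mitochondrial ATP synthase and starts beside Gabpa on the other strand, was named because of the shared promoter. It averaged 83.5 ± 4.35 CPM in Ts65Dn;Df(17)2 mice, 83.9 ± 2.00 in Dp(16)1/Df(16)8 mice and 53.3 ± 4.68 in +/+ mice (SD, n = 10, 10 and 12), and its fold over +/+ was 1.57 in Ts65Dn;Df(17)2 mice and 1.58 in Dp(16)1/Df(16)8 mice. The ratio of Gabpa to Atp5j CPM was 0.566 ± 0.0494 in Ts65Dn;Df(17)2 mice, 0.578 ± 0.0627 in Dp(16)1/Df(16)8 mice and 0.602 ± 0.0768 in +/+ mice, so the balance of the pair moved by less than its spread between animals. The annotated genes overlap by 701 bases on opposite strands, and with the strand setting of the counting not given in the sources used here, reads from that overlap cannot be assigned to either gene.

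The partner subunits of GABP lie outside the segment. Gabpb1 had a pooled fold of 1.03 (adjusted p = 0.753) and Gabpb2 one of 0.94 (adjusted p = 0.432) with both aneuploid genotypes against +/+. The level of Gabpa per kilobase over that of Gabpb1 was 3.72 ± 0.386 in Ts65Dn;Df(17)2 mice, 3.56 ± 0.476 in Dp(16)1/Df(16)8 mice and 2.5 ± 0.317 in +/+ mice (SD). Over Gabpb2 the ratio was 3.69 ± 0.371 in Ts65Dn;Df(17)2 mice, 3.95 ± 0.433 in Dp(16)1/Df(16)8 mice and 2.42 ± 0.355 in +/+ mice. The ratio of transcripts was higher in aneuploid animals by more than its SD. The lowest ratio to Gabpb1 was 3.24 in Ts65Dn;Df(17)2 mice and 2.91 in Dp(16)1/Df(16)8 mice, against a highest of 3.16 in +/+ mice. The Dp(16)1/Df(16)8 ratios to Gabpb1 thus overlapped with those of +/+ mice. The lowest ratio to Gabpb2 was 3.34 in Ts65Dn;Df(17)2 mice and 3.31 in Dp(16)1/Df(16)8 mice, against a highest of 2.97 in +/+ mice, without overlap.

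A list of 20 genes described as GABP targets, most of them nuclear genes of mitochondria, was followed to see where their levels lay. None was called in either aneuploid genotype alone in edgeR's test, with 3 of 20 at an unadjusted p below 0.05 in Ts65Dn;Df(17)2 mice, where 21.8% of all tested genes had such a p, and 3 of 20 in Dp(16)1/Df(16)8 mice, where 12.8% did. In the pooled comparison Tomm70a, an import receptor of the outer mitochondrial membrane, rose 1.23-fold, averaging 337.2 ± 57.4 CPM in aneuploid and 273.2 ± 53.3 in +/+ mice (adjusted p = 0.0498, higher in 15 of 20), where 1.78% of all genes were called higher. That call was lost without any 1 of 22 of the 32 libraries (adjusted p up to 0.102) and with the striatal mean (0.088). The most abundant of the others, Atp5b, had a pooled fold of 1.01 (adjusted p = 0.75). The median log2 fold of the list was 0.006 in the pooled comparison, against 0.002 over all tested genes.

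Ets2 (ENSMUSG00000022895.16, 95702075 to 95721051, plus strand) was the most abundant member. Its lowest, median and highest levels were 105.0, 113.4 and 122.2 CPM in Ts65Dn;Df(17)2 mice, 103.0, 113.0 and 132.5 in Dp(16)1/Df(16)8 mice, and 58.6, 78.9 and 91.3 in +/+ mice. Every aneuploid animal stood above every +/+ animal, as for 0.33% of all tested genes in Ts65Dn;Df(17)2 mice and 0.243% in Dp(16)1/Df(16)8 mice. The 2 aneuploid genotypes overlapped. The spread was narrow, with a coefficient of variation of 5.14% in Ts65Dn;Df(17)2 mice, 7.87% in Dp(16)1/Df(16)8 mice and 9.64% in +/+ mice. The fold was 1.46 (1.36 to 1.56, adjusted p = 7.3e-10) in Ts65Dn;Df(17)2 mice and 1.47 (1.37 to 1.57, adjusted p = 5.7e-10) in Dp(16)1/Df(16)8 mice, each higher in 10 of 10 animals. Against 1.5 the adjusted p was at least 0.704 in each genotype in edgeR's test.

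Erg (ENSMUSG00000040732.20, 95359169 to 95586593, minus strand) was scarce, with 15 to 60 counts per library. Its lowest, median and highest levels were 3.45, 5.57 and 6.31 CPM in Ts65Dn;Df(17)2 mice, 3.63, 6.12 and 7.39 in Dp(16)1/Df(16)8 mice, and 2.26, 3.48 and 6.18 in +/+ mice. The groups overlapped: 1 of 10 Ts65Dn;Df(17)2 and 5 of 10 Dp(16)1/Df(16)8 animals stood above the highest +/+ animal, and 1 female +/+ animal at 6.18 CPM stood apart from the next at 4.95. Erg rose 1.61-fold in Dp(16)1/Df(16)8 mice (1.30 to 1.98, adjusted p = 0.015, higher in 9 of 10). In Ts65Dn;Df(17)2 mice the fold was 1.41 (1.14 to 1.74, adjusted p = 0.0523, higher in 9 of 10), which missed the threshold. Pooled, Erg was 1.51-fold higher (1.25 to 1.81, adjusted p = 0.00851), and against 1.5 the adjusted p ran from 0.704 to 0.966 over the 3 comparisons.

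Because ERG is known from endothelial cells, its values are set beside those of 20 other endothelial genes. In Ts65Dn;Df(17)2 mice 15 of the 20 had a fold above 1 and a median log2 fold of 0.120, against 0.005 over all tested genes. In Dp(16)1/Df(16)8 mice 16 of the 20 had one, with a median of 0.151 against 0.001. None was called in either genotype alone by edgeR, with 3 of 20 at an unadjusted p below 0.05 in Ts65Dn;Df(17)2 mice (21.8% of all tested genes) and 4 of 20 in Dp(16)1/Df(16)8 mice (12.8%). In the pooled comparison Kdr, a receptor for vascular endothelial growth factor, rose 1.39-fold (21.6 ± 5.22 CPM in aneuploid and 15.4 ± 3.55 in +/+ mice, adjusted p = 0.0325, higher in 17 of 20), 1 of 20 called against 1.78% of all genes called higher, and the most abundant, Flt1, had a fold of 0.996 (adjusted p = 0.982). The call of Kdr was lost without any 1 of 6 libraries (adjusted p up to 0.0661) and with the striatal mean (0.127). The summed level of the list ran from 190.4 to 315.2 CPM in Ts65Dn;Df(17)2 mice, 253.0 to 343.2 in Dp(16)1/Df(16)8 mice and 188.9 to 314.9 in +/+ mice, and no gene of it was at 0 in every library.

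Across the 32 libraries, after genotype and sex were taken out, the genes outside the segment whose log2 CPM varied most like that of Erg were Cdh5 (r = 0.622), Aplnr (0.581) and Wwtr1 (0.577), the best of 13251 genes searched. CDH5 is the cadherin of endothelial junctions and APLNR a receptor of endothelial cells. With the mean of the endothelial list r was 0.55 and rho 0.54 over 32 libraries, 0.47 without the 2 libraries farthest from the median, and within genotypes 0.58 in Ts65Dn;Df(17)2 mice, 0.68 in Dp(16)1/Df(16)8 mice and 0.49 in +/+ mice. These libraries share depth and dissection, so r is a description. With the endothelial mean as a term in the model, the fold of Erg was 1.28 in Ts65Dn;Df(17)2 (adjusted p = 0.152 in edgeR) and 1.43 in Dp(16)1/Df(16)8 mice (adjusted p = 0.0761), so that the call in Dp(16)1/Df(16)8 mice was lost. It was also lost with the mean of 19 immediate early genes, described below, as a term (1.54-fold, adjusted p = 0.0651). The part of endothelial cells in the difference was not tested. The ratio of Erg to Cdh5 CPM was 0.341 ± 0.0575 in Ts65Dn;Df(17)2 mice, 0.369 ± 0.0696 in Dp(16)1/Df(16)8 mice and 0.263 ± 0.0530 in +/+ mice.

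No gene of a list of the ETS family outside the segment was called higher. That list also holds Gabpb1 and Gabpb2, the partner subunits of GABP, which count among its tested genes. Of 25 listed, 17 were tested and none rose. Elk1, a partner of serum response factor, fell to 59.8 ± 4.81 CPM in Ts65Dn;Df(17)2 mice, against 68.2 ± 4.27 in +/+ mice (0.876-fold, adjusted p = 0.0325 in edgeR, below the +/+ mean in 10 of 10). In that comparison 2.22% of all tested genes were called lower. Elk1 also fell in the pooled comparison, 0.901-fold (adjusted p = 0.0415), where 2.44% of all genes were called lower. No member of the list was called in Dp(16)1/Df(16)8 mice, where 0.156% of all genes were called lower. There 1 of 17 had an unadjusted p below 0.05 in edgeR, against 12.8% of all genes. The call of Elk1 was lost without any 1 of 4 libraries in Ts65Dn;Df(17)2 mice and of 15 in the pooled comparison, and with the striatal mean the adjusted p was 0.157 in the one and 0.148 in the other. The most abundant member, Etv1, had a pooled fold of 0.825 (adjusted p = 0.333). The median log2 fold of the 17 was -0.049 in Ts65Dn;Df(17)2 mice and -0.045 in Dp(16)1/Df(16)8 mice.

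Runx1 (ENSMUSG00000022952.17, 92601466 to 92826149, minus strand) was the scarcest gene that passed the filter, with 8 to 37 counts per library. Its lowest, median and highest levels were 2.40, 3.19 and 3.80 CPM in Ts65Dn;Df(17)2 mice, 2.2, 3.32 and 4.93 in Dp(16)1/Df(16)8 mice, and 1.2, 2.41 and 3 in +/+ mice. The +/+ animals lay in 2 clumps, 5 from 1.2 to 1.37 CPM (4 labelled female, 1 male) and 7 from 2.26 to 3 (2 female, 5 male), and every aneuploid animal stood above the lower clump. The fold was 1.47 in Ts65Dn;Df(17)2 (1.16 to 1.88, adjusted p = 0.0552) and 1.59 in Dp(16)1/Df(16)8 mice (1.25 to 2.03, adjusted p = 0.0629), each above the +/+ mean in 10 of 10 animals and each short of the threshold in edgeR. Other tools called Runx1 in both, with an adjusted p in Ts65Dn;Df(17)2 mice of 0.0329 by DESeq2 and 0.0425 by limma voom, and in Dp(16)1/Df(16)8 mice of 0.0191 by DESeq2 and 0.0489 by limma voom. Pooled over both genotypes Runx1 was 1.53-fold higher (1.24 to 1.89, adjusted p = 0.0182, 20 of 20). Against 1.5, the adjusted p ran from 0.704 to 0.974.

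Cbfb, the partner subunit of RUNX proteins, had a pooled fold of 1.01 (adjusted p = 0.969 in edgeR), and none of the 5 tested genes of the RUNX family and its partners was called in either genotype or pooled, with 2 of 5 at an unadjusted p below 0.05 in Ts65Dn;Df(17)2 mice (21.8% of all tested genes) and 1 of 5 in Dp(16)1/Df(16)8 mice (12.8%). The most abundant of them, Cbfa2t2, had a pooled fold of 0.975 (adjusted p = 0.617). The level of Runx1 per kilobase over that of Cbfb was 0.0409 ± 0.00953 in Ts65Dn;Df(17)2 mice, 0.0422 ± 0.0112 in Dp(16)1/Df(16)8 mice and 0.0277 ± 0.0117 in +/+ mice (SD).

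Among 20 microglia genes, set beside Runx1 because microglia are the resident blood-lineage cells of brain, Ctss rose and Mertk fell in Ts65Dn;Df(17)2 mice, 1 of 20 each way, where 1.75% of all genes were called higher and 2.22% lower. None was called in Dp(16)1/Df(16)8 mice, where 2 of 20 had an unadjusted p below 0.05, against 12.8% of all genes. Ctss, a lysosomal protease, averaged 43.1 ± 3.73 CPM in Ts65Dn;Df(17)2 mice and 31.8 ± 5.56 in +/+ mice (1.36-fold, adjusted p = 0.00372 in edgeR, 10 of 10 above the +/+ mean). Mertk, a receptor for uptake of dying cells that astrocytes also express, averaged 44.1 ± 4.46 CPM in Ts65Dn;Df(17)2 mice and 57.8 ± 11.2 in +/+ mice (0.762-fold, adjusted p = 0.0163, 10 of 10 below). Pooled, the folds were 1.29 for Ctss (adjusted p = 0.00499) and 0.808 for Mertk (adjusted p = 0.0239), and the most abundant other gene, Csf1r, was at 1.01 (adjusted p = 0.923). With the striatal mean as a term Ctss kept its pooled call (adjusted p = 0.00954) and Mertk lost it (0.131), as it did without any 1 of 3 libraries. The summed level of the list ran from 441.8 to 489.4 CPM in Ts65Dn;Df(17)2 mice, 412.9 to 503.3 in Dp(16)1/Df(16)8 mice and 408.2 to 565.5 in +/+ mice. After genotype and sex were taken out, r of Runx1 with the mean of this list was 0.46 over 32 libraries (rho 0.38). Without the 2 libraries farthest from the median r was 0.33. Within genotypes it was -0.06 in Ts65Dn;Df(17)2 mice, 0.15 in Dp(16)1/Df(16)8 mice and 0.71 in +/+ mice. The part of microglia in the level of Runx1 was not tested.

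Sim2 (ENSMUSG00000062713.8, 94084931 to 94127032, plus strand) was all but undetected in the cortex at this depth and did not pass the filter. Libraries held 0 to 5 counts in Ts65Dn;Df(17)2 (16 in all), 0 to 4 in Dp(16)1/Df(16)8 (18 in all) and 0 to 6 in +/+ mice (22 in all), with no count in 2 Ts65Dn;Df(17)2, 1 Dp(16)1/Df(16)8 and 4 +/+ libraries. The count ratio to +/+ was 0.789 (95% exact binomial interval 0.387 to 1.57) in Ts65Dn;Df(17)2 mice and 0.992 (0.501 to 1.94) in Dp(16)1/Df(16)8 mice, intervals that cover counting error only and hold both 1 and 1.5. A two-sided permutation test of mean CPM gave p = 0.608 in Ts65Dn;Df(17)2 mice and 0.91 in Dp(16)1/Df(16)8 mice (0.91 for each after adjustment over 4 comparisons), so neither a change nor its absence was detectable.

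Of the bHLH-PAS genes that share the family of Sim2, 14 of 15 were tested, none rose, and Ahr and Arnt fell in Ts65Dn;Df(17)2 mice, 2 of 14 against 2.22% of all genes called lower. Arnt, the common partner of the family, averaged 45 ± 3.40 CPM in Ts65Dn;Df(17)2 mice and 52.1 ± 4.60 in +/+ mice (0.865-fold, adjusted p = 0.0275 in edgeR), and Ahr, the dioxin receptor, 12 ± 1.21 CPM in Ts65Dn;Df(17)2 mice and 15 ± 1.82 in +/+ mice (0.801-fold, adjusted p = 0.0133). Each was below the +/+ mean in 10 of 10 animals. Pooled, Arnt (0.875-fold, adjusted p = 0.0166), Ahr (0.849-fold, adjusted p = 0.0285) and Arnt2, the neuronal relative of Arnt (0.849-fold, adjusted p = 0.0486), were lower, 3 of 14 against 2.44% of all genes, while the most abundant gene not called, Epas1, had a fold of 1.05 (adjusted p = 0.444). In Dp(16)1/Df(16)8 mice none was called, with 5 of 14 at an unadjusted p below 0.05, against 12.8% of all genes. With the striatal mean as a term all of these calls were lost, with an adjusted p of 0.0878 for Arnt, 0.151 for Ahr and 0.268 for Arnt2 in the pooled comparison. Without any 1 of 22 libraries the call of Arnt2 was lost, as was the pooled call of Ahr without any 1 of 5 and that of Arnt in Ts65Dn;Df(17)2 mice without any 1 of 5.

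Zbtb21 (ENSMUSG00000046962.16, 97943357 to 97962622, minus strand), at the distal end of the segment, had the smallest pooled fold of the tested members. Its lowest, median and highest levels were 45.4, 49.3 and 55.6 CPM in Ts65Dn;Df(17)2 mice, 44.4, 55.4 and 60.1 in Dp(16)1/Df(16)8 mice, and 33.9, 38.4 and 42.7 in +/+ mice. Every aneuploid animal stood above every +/+ animal, as for 0.33% of all tested genes in Ts65Dn;Df(17)2 mice and 0.243% in Dp(16)1/Df(16)8 mice. The 2 aneuploid genotypes overlapped. The fold was 1.33 (1.24 to 1.43, adjusted p = 6.6e-07) in Ts65Dn;Df(17)2 mice and 1.41 (1.31 to 1.51, adjusted p = 1.7e-08) in Dp(16)1/Df(16)8 mice, higher in 10 of 10 animals of each. C2cd2 overlaps Zbtb21 on the same strand over 19242 bases in the annotation and had 5359 counts in all libraries, against 11538 for Zbtb21, so reads in shared exons are uncertain.

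Set against 1.5, Zbtb21 was lower in Ts65Dn;Df(17)2 mice (adjusted p = 0.0229 in edgeR's test over 77 segment genes) and pooled (1.37-fold, adjusted p = 0.0311), and was not called in Dp(16)1/Df(16)8 mice (adjusted p = 0.311). It was the only one of the 5 tested members called, in a segment where 11.7% of genes were called in Ts65Dn;Df(17)2 mice, 7.79% in Dp(16)1/Df(16)8 mice and 16.9% pooled, 10 of the 13 pooled calls being below 1.5. By fold in Ts65Dn;Df(17)2 mice, Zbtb21 ranked 68 of 77, Erg 59, Ets2 52, Gabpa 48 and Runx1 46. In Dp(16)1/Df(16)8 mice the ranks were 63 for Zbtb21, 51 for Ets2, 41 for Gabpa, 26 for Runx1 and 22 for Erg. Without replicate 8 of Ts65Dn;Df(17)2 the adjusted p against 1.5 was 0.0523 in that genotype, and with blocks of animal numbers as a term it was 0.137 (pooled 0.0384). The pooled call was lost without any 1 of 7 libraries, with an adjusted p of up to 0.08. Mrpl39, at the other end of the segment, had a fold of 1.34 in Ts65Dn;Df(17)2 (adjusted p against 1.5 of 0.139) and 1.46 in Dp(16)1/Df(16)8 mice (0.704).

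**Figure D3:**
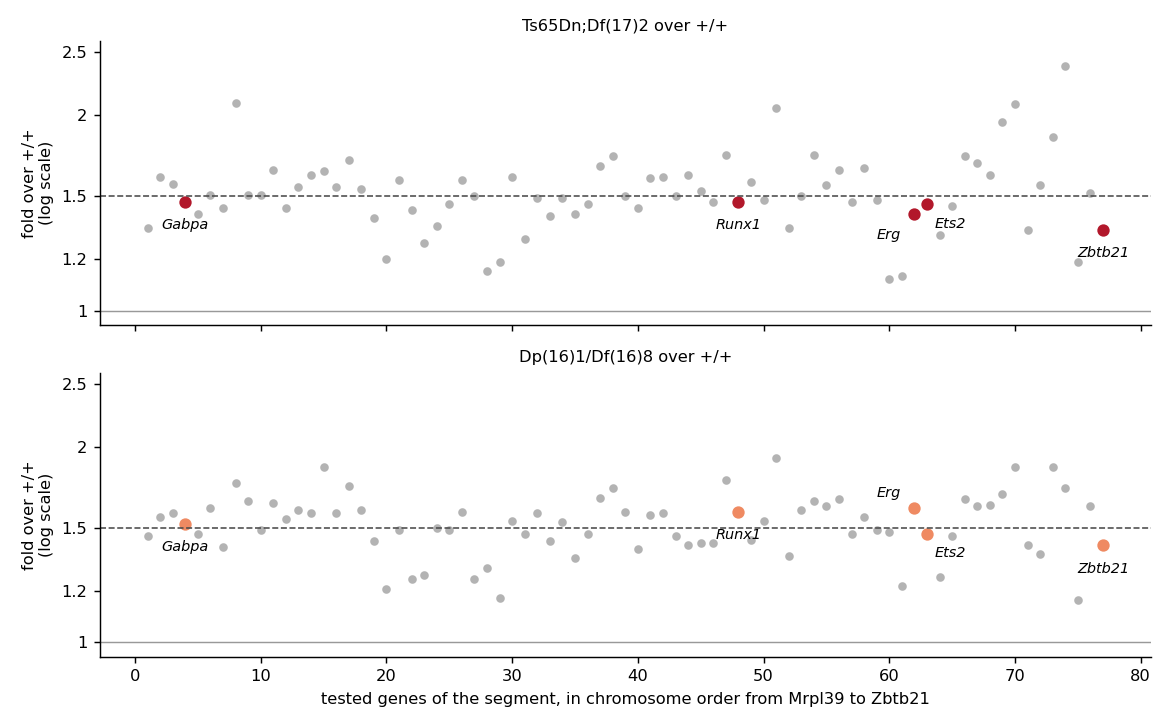
Fold over +/+ (log axis) of the 77 tested genes of the segment in chromosome order, in Ts65Dn;Df(17)2 (top) and Dp(16)1/Df(16)8 mice (bottom), with a dashed line at 1.5 and the 5 tested members in colour. Zbtb21 is the last gene and lies under the line at 1.33 in Ts65Dn;Df(17)2 mice and 1.41 in Dp(16)1/Df(16)8 mice. Every other tested member also lies under it in Ts65Dn;Df(17)2 mice, from 1.41 (Erg) to 1.47 (Gabpa and Runx1). In Dp(16)1/Df(16)8 mice Gabpa, Runx1 and Erg lie above the line and Ets2 under it.

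Zbtb21 varied between animals in step with genes that neurons switch on within minutes of activity. After genotype and sex were taken out, the 3 genes outside the segment most like it among 13251 were Junb (r = 0.845), Nr4a1 (0.832) and Npas4 (0.83), all immediate early genes. Npas4 is also one of the bHLH-PAS genes above. Their own levels ranged widely within each genotype, as Npas4 did from 10.1 to 44.4 CPM in Ts65Dn;Df(17)2 mice, 10.9 to 59.7 in Dp(16)1/Df(16)8 mice and 19 to 63.5 in +/+ mice. A list of 20 immediate early genes was made after this likeness was seen and holds all 3, so it restates the likeness and is no separate evidence of it. It gave with its 19 tested members r = 0.81 and rho = 0.84 over 32 libraries, 0.78 without the 2 libraries farthest from the median, and 0.83 in Ts65Dn;Df(17)2 mice, 0.67 in Dp(16)1/Df(16)8 mice and 0.70 in +/+ mice. For Gabpa, Ets2, Erg and Runx1 the same r was between -0.22 and -0.20.

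No immediate early gene was called in either aneuploid genotype. Their mean log2 CPM was 5.40 ± 0.47 in Ts65Dn;Df(17)2 mice, 5.41 ± 0.51 in Dp(16)1/Df(16)8 mice and 5.77 ± 0.53 in +/+ mice (SD), and all 19 had a fold below 1 in both aneuploid genotypes, with a median log2 fold of -0.350 in Ts65Dn;Df(17)2 mice and -0.374 in Dp(16)1/Df(16)8 mice. By edgeR 4 of 19 had an unadjusted p below 0.05 in Ts65Dn;Df(17)2 mice (21.8% of all tested genes) and 1 of 19 in Dp(16)1/Df(16)8 mice (12.8%). With their mean as a term, chosen after the data were seen, the fold of Zbtb21 was 1.40 in Ts65Dn;Df(17)2 mice and 1.48 in Dp(16)1/Df(16)8 mice, and neither was called against 1.5 (adjusted p = 0.0835 in Ts65Dn;Df(17)2 mice and 0.872 in Dp(16)1/Df(16)8 mice). With the striatal marker mean as a term the fold was 1.36 in Ts65Dn;Df(17)2 (adjusted p against 1.5 of 0.124) and 1.42 in Dp(16)1/Df(16)8 mice (0.464). Whether neuronal activity at the time of dissection had a part in the level of Zbtb21 was not tested.

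**Figure D4:**
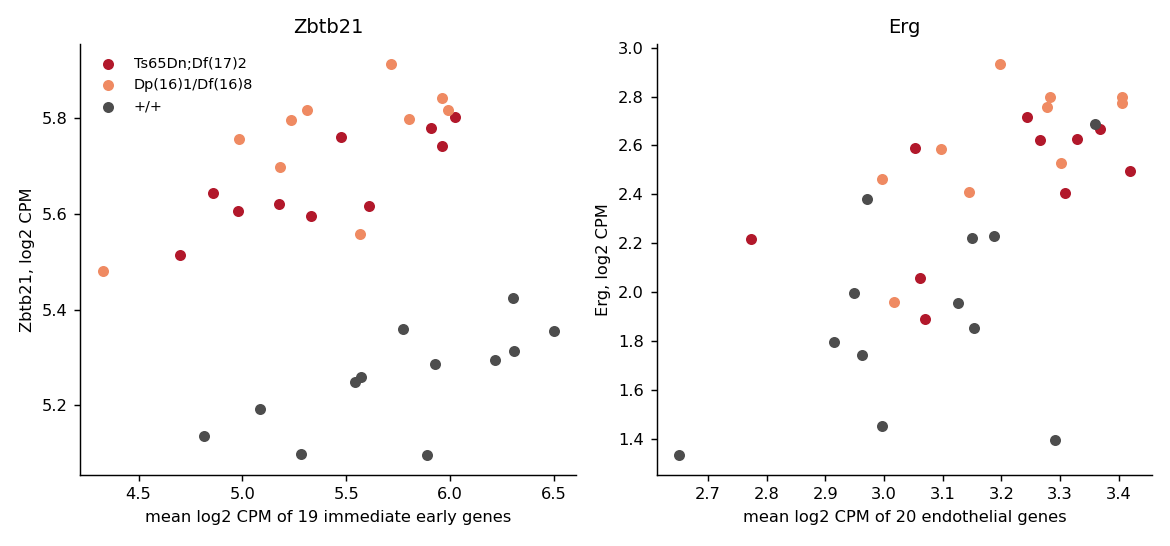
Left, log2 CPM of Zbtb21 against the mean log2 CPM of 19 immediate early genes, and right, log2 CPM of Erg against that of 20 endothelial genes, with 1 point per animal, coloured by genotype. Zbtb21 climbs with the immediate early genes inside each genotype (r = 0.83 in Ts65Dn;Df(17)2 mice, 0.67 in Dp(16)1/Df(16)8 mice and 0.70 in +/+ mice) on levels that are higher in both aneuploid genotypes, and Erg climbs with the endothelial genes (r from 0.49 to 0.68).

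BTB zinc finger genes elsewhere in the genome were called at about the share of all genes. Of 44 listed, 41 were tested and 1 was called in Ts65Dn;Df(17)2 mice, where 2.22% of all genes were called lower. This was Zbtb16, a regulator of lymphoid and stem cells, which averaged 47.2 ± 17.7 CPM in Ts65Dn;Df(17)2 mice and 105.0 ± 70.2 in +/+ mice (0.462-fold, adjusted p = 0.0494 in edgeR, below the +/+ mean in 10 of 10). That call was lost without any 1 of 22 libraries (adjusted p up to 0.102), and with the striatal mean its log2 fold was -0.39 (adjusted p = 0.508). In Dp(16)1/Df(16)8 mice none was called, with 3 of 41 at an unadjusted p below 0.05, against 12.8% of all genes. Zbtb20, a zinc finger gene of cortical neurons and glia and the most abundant of the list, had a pooled fold of 1.15 (adjusted p = 0.334). The median log2 fold of the 41 was -0.000 in Ts65Dn;Df(17)2 mice and -0.039 in Dp(16)1/Df(16)8 mice.

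The genes whose levels varied most like those of the other members did not form a group that their symbols name. They were Rngtt (r = 0.65), Zfp775 (0.612) and Tmem35b (0.609) for Gabpa, Fzd2 (0.738), Luc7l (0.735) and Prrc2c (0.718) for Ets2, and Lrpap1 (0.636), Chchd2 (0.629) and Nat14 (0.629) for Runx1.

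The 2 aneuploid genotypes were also set against each other, to see whether carrying the segment on a freestanding chromosome or inside chromosome 16 altered these genes. None of the 5 tested members was called, in a comparison where 0.0499% of all genes were (8 of 16042, with 4.1% at an unadjusted p below 0.05). The fold of Ts65Dn;Df(17)2 over Dp(16)1/Df(16)8 was 0.972 for Gabpa (0.892 to 1.06), 0.994 for Ets2 (0.926 to 1.07) and 0.946 for Zbtb21 (0.879 to 1.02). It was 0.879 for Erg (0.711 to 1.09) and 0.924 for Runx1 (0.727 to 1.18), and these intervals, from fewer counts, are wider. For Sim2 the count ratio was 0.796 (0.380 to 1.65).

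No member's change was shown to differ between the sexes. By edgeR the interaction of genotype and sex called 0 of 16042 genes in either genotype (0%, with 4.91% at an unadjusted p below 0.05 in Ts65Dn;Df(17)2 mice and 5.01% in Dp(16)1/Df(16)8 mice), limma voom called none, and DESeq2 called none in Ts65Dn;Df(17)2 mice and 2 in Dp(16)1/Df(16)8 mice. The smallest unadjusted p of a member was 0.045, for Zbtb21 in Dp(16)1/Df(16)8 mice, where the change was 0.20 larger on the log2 scale in males than in females (adjusted p = 0.957). There Zbtb21 averaged 56.5 ± 2.34 CPM in males and 50.9 ± 5.18 in females (SD, n = 5 each), against 37.4 ± 2.51 in +/+ males and 38.7 ± 3.13 in +/+ females (n = 6 each). Replicate 2 of Dp(16)1/Df(16)8, whose Y-linked counts go against its label, is counted here as labelled, among the females.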

How the data were processed

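The authors deposited 1 table of raw counts per gene, whole numbers with no normalization, for 32 libraries of total RNA depleted of ribosomal RNA. Per the submitters' processing notes, the builds were GRCm38.p6 and GRCh38 and the tools were bcl2fastq 2.20, STAR 2.7.9a and, for counting, featureCounts (Subread 1.6.4). The role of each build, the annotation release and the strand setting are not given in the sources used here. Coordinates come from GENCODE M21 (GRCm38), matched by identifier for 55141 of 55401 genes.

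Animals were grouped by labelled genotype, and replicates were numbered in accession order as names only. The 6 members and all gene lists were chosen with earlier results of these data known. In edgeR 4.0.16 (R 4.3.3), filterByExpr by genotype kept 16042 genes with 99.7% of the counts. Libraries were scaled by TMM, and a quasi-likelihood model with genotype and sex was fitted to all 32. Intervals are 95%, with a coefficient's size over the square root of F as its error. The pooled comparison averages both aneuploid coefficients. For the test against 1.5, log(1.5) was moved into the offsets of aneuploid libraries and p was adjusted over the 77 tested of 285 annotated genes of the segment (chromosome 16, 84717576 to 97962622). Elsewhere p was adjusted over all tested genes, with a threshold of 0.05. CPM use the TMM factors, and log2 CPM a prior count of 2. Permutation tests drew 100000 permutations (scipy 1.17.1). Scripts were tested on simulated data.

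The genes named are the 6 members, Atp5j and the genes at the segment's ends, then from 7 lists, the members past the threshold (at most 4, by adjusted p) and the most abundant that did not pass, and for each member of 1 CPM or more, the 3 most alike genes outside the segment, without provisional symbols. Gabpb1, Gabpb2 and Cbfb were added as partner subunits, and Cdh5 for its likeness to Erg. The immediate early gene list was made after its likeness to Zbtb21 was seen. Alternatives covered scaling, filter, covariates, tool (DESeq2 1.42.0, limma 3.58.1), samples and leaving out each library in turn. Read counts without molecular identifiers are not independent molecules, so count intervals cover counting error only.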

Additional observations from a re-analysis of the deposited data

How the results depend on the processing

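Of 48 alternatives, 32 left out 1 library each, and each gene and comparison against +/+ had 46 or 47. All 700 values of the 5 tested genes kept a fold above 1, and Gabpa, Ets2 and Zbtb21 were called in each. Sim2, fitted only with no filter, was at 0.823 in Ts65Dn;Df(17)2, 1.03 in Dp(16)1/Df(16)8 and 0.92 pooled, none of them called. No paired analysis was made because the labels give neither pairs nor litters. Blocks of animals whose numbers share their leading digits were tried as a term, and they are not known to be litters or batches. The animals numbered below 30000, all of them Ts65Dn;Df(17)2 mice, were left out in another alternative. Members called in Ts65Dn;Df(17)2 numbered 5 by DESeq2, and from 3 to 5 with a library left out (5 without +/+ replicate 6 or Ts65Dn;Df(17)2 replicate 10), since Erg and Runx1 lay near the threshold. In Dp(16)1/Df(16)8 all 5 were called by DESeq2 and by limma voom. With a library left out, the adjusted p in edgeR ran in Ts65Dn;Df(17)2 from 0.0159 to 0.0948 for Erg and 0.0298 to 0.104 for Runx1, and in Dp(16)1/Df(16)8 from 0.00165 to 0.0489 for Erg and 0.0269 to 0.145 for Runx1. The pooled call of Runx1 was lost with the striatal (adjusted p = 0.0722) or immediate early gene mean (0.0669) as a term.

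Among the calls of members, that of Zbtb21 below 1.5 was the least stable. The number of members called against 1.5 in Ts65Dn;Df(17)2 was 0 with no filter, with blocks of animal numbers and with the striatal or immediate early gene mean as a term, and between 0 and 1 with a library left out (0 without Ts65Dn;Df(17)2 replicate 8). Pooled, it was 0 with no filter and with the striatal, immediate early gene or endothelial mean as a term, and between 0 and 1 with a library left out (0 without +/+ replicate 2, 3, 4, 5, 8 or 10 or Ts65Dn;Df(17)2 replicate 8). The cause was not tested.

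Values not called that crossed their null are given as log2 folds, where 1.5-fold is 0.58. For Gabpa in Dp(16)1/Df(16)8 it was 0.58 with any of the 4 marker means as a term and 0.57 to 0.63 with a library left out, and pooled 0.56 to 0.61. For Erg it was 0.45 to 0.59 in Ts65Dn;Df(17)2 with a library left out and 0.52 in Dp(16)1/Df(16)8 with the endothelial mean. Pooled, Erg was at 0.58 with blocks, 0.52, 0.53, 0.44 and 0.55 with the striatal, immediate early gene, endothelial and microglia means, and 0.54 to 0.68 with a library left out. For Runx1 it was 0.60 in Ts65Dn;Df(17)2 by limma voom and 0.51 to 0.63 with a library left out, and pooled 0.55 with the striatal and 0.57 with the immediate early gene mean and 0.56 to 0.69 with a library left out. Ets2 in Ts65Dn;Df(17)2 over Dp(16)1/Df(16)8 ran from -0.03 to 0.01 with a library left out.

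Of other genes in the pooled comparison, Etv1 was at 0.07 and Atp5b at -0.01 with the striatal mean, and Epas1 at -0.01 with the endothelial mean. Flt1 was at 0.02 with blocks, 0.00 with the immediate early gene mean, 0.03 without animals numbered below 30000, 0.01 by limma voom and -0.05 to 0.04 with a library left out. Csf1r was at -0.06, -0.02, -0.04 and -0.02 with the striatal, immediate early gene, endothelial and microglia means and -0.01 to 0.05 with a library left out, where Cbfb ran from -0.02 to 0.04. The pooled difference of Sim2 was 0.115 on the scale log2(CPM + 0.1). Depth limits Erg, Runx1 and Sim2.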
